A study of Mus musculus with 4 samples.

Results

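Small leucine-rich proteoglycans were followed in cancer-associated fibroblasts (CAF) of B16-F1-OVA melanoma tumors. The 9 genes were *Dcn* (decorin), *Lum* (lumican), *Ogn* (osteoglycin), *Bgn* (biglycan), *Fmod* (fibromodulin), *Aspn* (asporin), *Prelp*, *Omd* (osteomodulin) and *Podn* (podocan), and they were taken by name from the 33696 genes counted. They were read in 21791 of 24489 cell barcodes, those with 500 to 6000 genes, at most 10% mitochondrial UMIs, and no UMI of *Ptprc* (CD45) or *Pax3*, a melanocyte-lineage factor. A UMI, or unique molecular identifier, marks 1 captured transcript. All 9 genes had more than the 100 UMIs over these cells that were set as the minimum for a gene to be compared.

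The host mice carried *Cxcl13*-cre-tdTomato together with R26R-eGFPflox, with a host strain that the labels give as C57Bl/6, so that the *Cxcl13* promoter drives both tdTomato and Cre, and eGFP marks cells with Cre activity now or in the past. Each mouse had received 400000 melanoma cells intraperitoneally, and tumors were taken on day 14. Viable cells without CD45 and CD31 and with high podoplanin were sorted into 4 populations, tdTomato-neg eGFP-neg, tdTomato-neg eGFP+, tdTomato+ eGFP-neg and tdTomato+ eGFP+, each sequenced as 1 library with 10x Genomics 3′ chemistry. The study used mice of both sexes, and the number of animals behind a library is not given in the sources used here.

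With 1 library per population there is no replicate, so no p-value is given, and intervals cover counting error only. Kept cells numbered 10397, 5827, 4692 and 875 in the order above, with medians of 5443, 8296, 9042 and 8460 UMIs per cell. Pairs of libraries shared 2 to 21 barcodes. UMIs of 5 melanoma genes (*Mlana*, *Pmel*, *Tyr*, *Dct*, *Tyrp1*) summed to 325 CPM (counts per 1000000 UMIs) in kept cells of the tdTomato-neg eGFP-neg library, against 20.3 to 70.4 CPM in the other 3, and none of the 5 was at 0. Leaving out every kept cell with 3 of these genes or 2 of 6 immune genes left the number of proteoglycan genes 2-fold apart as it was in all 6 comparisons below.

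Small leucine-rich proteoglycans are secreted proteins built of leucine-rich repeats, most of which carry chondroitin, dermatan or keratan sulfate chains. They bind collagen fibrils and set fibril diameter and spacing, and several hold or present growth factors such as TGF-β. In fibroblasts, *Dcn* and *Lum* are among the best known markers of the lineage, and *Aspn* and *Bgn* are often named in matrix-producing fibroblasts of tumors.

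Several of the genes lie side by side in the genome. *Ecm2*, *Aspn*, *Omd* and *Ogn* follow each other on chromosome 13, *Dcn*, *Lum*, *Kera* and *Epyc* on chromosome 10, and *Optc*, *Prelp* and *Fmod* on chromosome 1, while *Bgn* is on X and *Podn* on chromosome 4. *Aspn*, *Omd* and *Ogn* all overlap *Cenpp*, which is on the opposite strand, and *Cenpp* ranged from 20.9 to 32.6 CPM over the 3 classes of cells described below. *Podn* overlaps *Scp2* on the same strand, so its counts are uncertain as far as the authors' counting could split them. The 250 bases upstream of the annotated start are shown for *Aspn*, *Omd* and *Ogn* on chromosome 13 and for *Bgn*. The first 3 were low together in the reporter-positive libraries, where *Bgn* was not low. *Aspn* and *Ogn* were also lowest in mesothelial cells, where *Omd* had too few UMIs to be ordered. The windows are RefSeq sequences of build GRCm38.p6. Capitals mark the TATA box (TATAAA), the CCAAT box, searched as those letters, and the GC box (GGGCGG), each on either strand.
Aspn (chr13:49544193-49544442, plus strand): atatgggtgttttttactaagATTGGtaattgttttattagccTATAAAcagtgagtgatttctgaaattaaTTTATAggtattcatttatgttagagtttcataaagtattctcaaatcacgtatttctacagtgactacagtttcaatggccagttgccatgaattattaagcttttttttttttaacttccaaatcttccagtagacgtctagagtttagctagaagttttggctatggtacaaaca
Omd (chr13:49582212-49582461, plus strand): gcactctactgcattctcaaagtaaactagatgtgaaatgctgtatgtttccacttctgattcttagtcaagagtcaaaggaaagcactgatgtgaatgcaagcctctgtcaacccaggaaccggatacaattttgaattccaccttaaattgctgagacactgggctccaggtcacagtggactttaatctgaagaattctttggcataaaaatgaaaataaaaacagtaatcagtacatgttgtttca
Ogn (chr13:49607765-49608014, plus strand): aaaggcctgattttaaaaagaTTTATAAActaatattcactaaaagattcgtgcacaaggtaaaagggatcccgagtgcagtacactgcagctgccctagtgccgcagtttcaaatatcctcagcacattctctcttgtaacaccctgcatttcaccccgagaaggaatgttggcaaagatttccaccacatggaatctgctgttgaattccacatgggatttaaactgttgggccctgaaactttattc
Bgn (chrX:73483351-73483600, plus strand): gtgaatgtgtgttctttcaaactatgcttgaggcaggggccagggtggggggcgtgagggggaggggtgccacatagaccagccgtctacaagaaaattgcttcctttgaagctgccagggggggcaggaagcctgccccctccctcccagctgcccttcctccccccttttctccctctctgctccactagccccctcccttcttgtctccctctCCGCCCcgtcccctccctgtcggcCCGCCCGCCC

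The *Aspn* window held TATAAA on both strands and CCAAT on the minus strand, and *Ogn* held TATAAA on both strands in overlapping letters. *Bgn* held GGGCGG at 3 places on the minus strand, of which 2 overlap, and the *Omd* window held none of the motifs. GC content was 30.0% for *Aspn*, 38.4% for *Omd*, 42.0% for *Ogn* and 64.4% for *Bgn*. Over 32851 promoters of 300 bases (250 before the start and 50 after), TATAAA was found in 13.6%, the CCAAT box in 37.4%, GGGCGG in 35.7% and the AP-1 motif TGANTCA in 7.81%. Of the 9 genes 7 had an entry in the promoter table, and no window of these held TGANTCA. A match describes the letters of the window and no more.

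Cells were placed in 3 classes by genes other than the proteoglycans. Pi16 cells had *Pi16*, a marker of universal adventitial fibroblasts, and neither *Msln* nor *Upk3b*. They could also have *Mfap4* and *Col15a1*, so cells with *Pi16* and these matrix markers were counted as Pi16 cells. Matrix cells had both *Mfap4* and *Col15a1* and none of *Pi16*, *Msln* and *Upk3b*, and mesothelial cells had both *Msln* and *Upk3b* and neither *Pi16* nor *Col15a1*. There were 2860 Pi16 cells, 1201 matrix cells and 2625 mesothelial cells, with medians of 4383, 9010 and 9268 UMIs. The other 15105 cells stayed unclassed, 6479 with no marker, 7306 with 1 of 2 markers of 1 class and 1320 with markers of more than 1 class.

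Genes outside the definitions were used to check the names. A list of 8 mesothelial genes summed to 2158 CPM in mesothelial cells, 158 CPM in Pi16 cells and 121 CPM in matrix cells. A list of 5 universal fibroblast genes summed to 1304 CPM in Pi16 cells, 725 CPM in mesothelial cells and 363 CPM in matrix cells. It was higher in Pi16 than in mesothelial cells in tdTomato-neg eGFP-neg (1399 against 685 CPM) and tdTomato-neg eGFP+ (1049 against 734 CPM). In tdTomato+ eGFP-neg it was at 943 CPM in each, so there it did not separate these classes. In tdTomato+ eGFP+ it was lower in Pi16 cells (477 against 1124 CPM, on 17 and 36 cells). A list of 5 matrix fibroblast genes summed to 1636 CPM in matrix cells, 1124 CPM in Pi16 cells and 159 CPM in mesothelial cells. Matrix genes were therefore also high in Pi16 cells, and the mesothelial cells carried collagen UMIs, with *Col1a1* at 1617 CPM against 8125 CPM in matrix cells. The unclassed cells lay between, at 596, 485 and 362 CPM for the 3 lists in that order.

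The populations differed in their mix of classes. Pi16 cells were 23.4% of the tdTomato-neg eGFP-neg library, 6.20% of tdTomato+ eGFP-neg, 2.01% of tdTomato-neg eGFP+ and 1.94% of tdTomato+ eGFP+. Matrix cells made up 8.45%, 4.03%, 1.77% and 3.43% of the libraries in the same order. Mesothelial cells were 12.5%, 1.85%, 20.6% and 4.11%. Both fibroblast classes thus had their highest share in the library without reporter.

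In all kept cells the 9 genes together gave 4366 CPM. They summed to 7756 CPM (95% interval 7716 to 7797) in Pi16 cells, 4936 CPM (4897 to 4976) in matrix cells and 3314 CPM (3292 to 3335) in mesothelial cells. After each cell was thinned to 1000 UMIs, 3 or more of the 9 genes were found in 51.4% of Pi16 cells, 37.4% of matrix cells and 4.17% of mesothelial cells, with means of 2.58, 2.26 and 1.29 genes per cell. UMIs at the 3′ end count each transcript once, so levels of different genes are set side by side in CPM with no division by length.

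The order of the genes differed between classes. In Pi16 cells it ran *Dcn*, *Bgn*, *Ogn*, *Lum*, *Aspn*, *Prelp*, *Podn*, *Omd*, *Fmod*, with no neighbouring intervals that overlapped, but most of these cells came from the tdTomato-neg eGFP-neg library. In Pi16 cells of tdTomato+ eGFP-neg, *Lum* (600 CPM) stood above *Ogn* (344 CPM), and *Aspn* (31.8 CPM) fell below *Prelp* (46.8 CPM) and *Podn* (36.7 CPM), although its interval overlapped theirs. In those of tdTomato-neg eGFP+, the intervals of *Lum* (407 to 499 CPM) and *Ogn* (378 to 467 CPM) overlapped. In matrix cells *Dcn* (2179 CPM) and *Bgn* (1974 CPM) were close, and *Lum*, *Aspn* and *Ogn* followed. In the tdTomato+ eGFP-neg library *Aspn* and *Ogn* of matrix cells were at 84.7 and 81.7 CPM, a gap that was smaller than the range of either gene over the libraries. In mesothelial cells *Prelp* followed *Dcn* and *Bgn*, *Aspn* came last but for *Omd*, and the intervals of *Podn* (16.1 to 19.2 CPM) and *Lum* (14.5 to 17.5 CPM) overlapped.

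**Figure D1:**
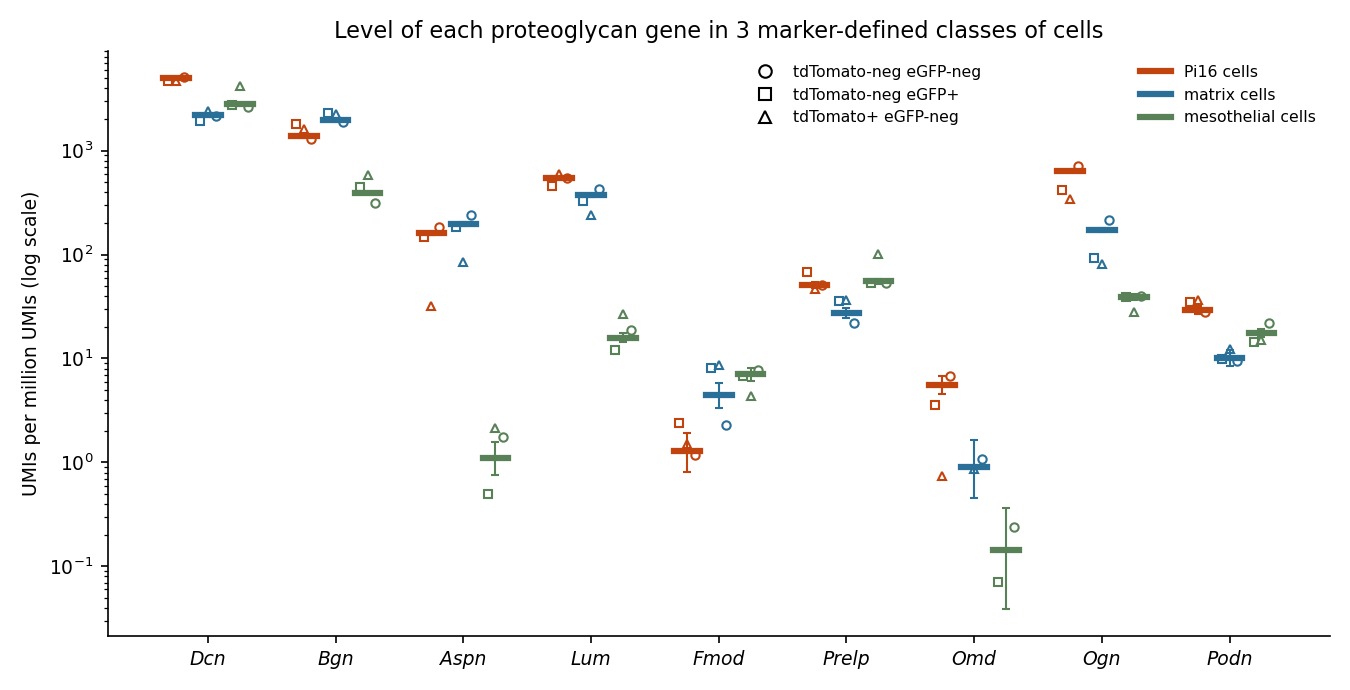
CPM of each gene on a log axis in Pi16, matrix and mesothelial cells. Thick lines are pooled values with 95% Poisson intervals, and open symbols are libraries with at least 50 cells of the class. A library with 0 UMIs of a gene is not drawn. *Dcn* is highest in Pi16 cells at 4955 CPM and *Bgn* in matrix cells at 1974 CPM, while *Aspn* is at 1.11 CPM in mesothelial cells.

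*Dcn*, a dermatan sulfate proteoglycan that binds collagen and TGF-β, was the most abundant of the 9 genes in every class over all libraries, although in matrix cells of the tdTomato-neg eGFP+ library *Bgn* stood above it (2293 against 1942 CPM). It reached 4955 CPM (4923 to 4988) in Pi16 cells, 2785 CPM (2765 to 2804) in mesothelial cells and 2179 CPM (2152 to 2205) in matrix cells. In Pi16 cells the libraries tdTomato-neg eGFP-neg, tdTomato-neg eGFP+ and tdTomato+ eGFP-neg were at 5062, 4696 and 4639 CPM, and in matrix cells at 2152, 1942 and 2405 CPM, so the classes did not overlap across libraries. In mesothelial cells the same libraries were at 2637, 2751 and 4192 CPM. Thinned to 1000 UMIs, 94.9% of Pi16 cells, 85.6% of mesothelial cells and 79.2% of matrix cells had *Dcn*, against 16.9% of 433 melanoma cells, which should lack it and had a median of 20877 UMIs before thinning.

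*Bgn*, the X-linked relative of *Dcn*, had another order. It was at 1974 CPM (1949 to 1999) in matrix cells, 1372 CPM (1355 to 1390) in Pi16 cells and 393 CPM (385 to 400) in mesothelial cells. Matrix cells of the 3 libraries were at 1866, 2293 and 2247 CPM, Pi16 cells at 1298, 1806 and 1619 CPM, and mesothelial cells at 313, 446 and 576 CPM. Within each library matrix cells were above Pi16 cells, and mesothelial cells were lowest. Thinned shares were 81.8%, 50.4% and 28.8%, against 7.62% of melanoma cells. Among cells with Y-linked UMIs and no *Xist*, described below, *Bgn* was at 2216 CPM in matrix cells and 2085 CPM in Pi16 cells.

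*Aspn*, which competes with *Dcn* for collagen, separated the fibroblast classes from mesothelial cells most widely. It was at 197 CPM (189 to 205) in matrix cells, 160 CPM (154 to 166) in Pi16 cells and 1.11 CPM (0.751 to 1.57) in mesothelial cells. The order of the fibroblast classes depended on the marker rule. Where either marker gene of a class placed a cell, the log2 ratio of *Aspn* in Pi16 over matrix cells was 1.22 instead of -0.31. The mesothelial level rests on 31 UMIs and is no higher than the 3.44 CPM (2.34 to 4.88) of melanoma cells, so it reads as background. In the tdTomato+ eGFP-neg library *Aspn* was low in both fibroblast classes, at 31.8 CPM in Pi16 cells and 84.7 CPM in matrix cells, against 184 and 239 CPM in the tdTomato-neg eGFP-neg library.

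Of the keratan sulfate class, *Lum*, which orders collagen fibrils in cornea and skin, was at 544 CPM (534 to 555) in Pi16 cells and 371 CPM (360 to 382) in matrix cells. Its 15.9 CPM (14.5 to 17.5) in mesothelial cells equalled the 16.0 CPM (13.5 to 18.8) of melanoma cells, and the thinned shares of 1.34% and 0.693% had overlapping intervals, so the mesothelial level reads as background. *Prelp*, which anchors basement membranes, was lowest in matrix cells. It stood at 55.2 CPM (52.5 to 58.1) in mesothelial cells, 51.2 CPM (47.9 to 54.6) in Pi16 cells and 27.2 CPM (24.3 to 30.3) in matrix cells, and mesothelial cells of the tdTomato+ eGFP-neg library were highest at 101 CPM.

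*Fmod*, a collagen-binding relative of *Lum* that is best known in tendon, was scarce. It was at 7.06 CPM (6.11 to 8.12) in mesothelial cells, 4.47 CPM (3.36 to 5.84) in matrix cells and 1.28 CPM (0.810 to 1.92) in Pi16 cells, on 198, 54 and 23 UMIs. *Omd*, first known from bone, was at 5.61 CPM (4.57 to 6.82) in Pi16 cells, 0.911 CPM (0.455 to 1.63) in matrix cells and 0.143 CPM (0.0389 to 0.365) in mesothelial cells. Of its 101 UMIs in Pi16 cells, 96 came from the tdTomato-neg eGFP-neg library.

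*Ogn*, also called mimecan, was concentrated in Pi16 cells. It was at 637 CPM (626 to 649) in Pi16 cells, 173 CPM (165 to 180) in matrix cells and 39.2 CPM (36.9 to 41.6) in mesothelial cells. Pi16 cells of the 3 libraries were at 713, 420 and 344 CPM and matrix cells at 215, 92.1 and 81.7 CPM, in the order given for *Dcn*. Melanoma cells were at 16.6 CPM. *Podn*, a relative found in smooth muscle, was at 29.3 CPM (26.8 to 31.9) in Pi16 cells, 17.6 CPM (16.1 to 19.2) in mesothelial cells and 10.2 CPM (8.47 to 12.2) in matrix cells.

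*Dcn* and *Bgn* gave most of the family's UMIs everywhere, but in different proportions. In mesothelial cells *Dcn* was 84.0% of the UMIs of the 9 genes and *Bgn* 11.9%. In matrix cells the shares were 44.1% and 40.0%, and in Pi16 cells 63.9% and 17.7%. *Lum*, *Ogn* and *Aspn* added 7.02%, 8.22% and 2.06% in Pi16 cells and 7.52%, 3.50% and 3.99% in matrix cells, against 0.480%, 1.18% and 0.0334% in mesothelial cells. By library, *Dcn* was 67.7% of the 9 genes' UMIs in tdTomato-neg eGFP-neg cells and 75.0% to 76.6% in the other 3, where *Lum* and *Ogn* were smaller.

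**Figure D2:**
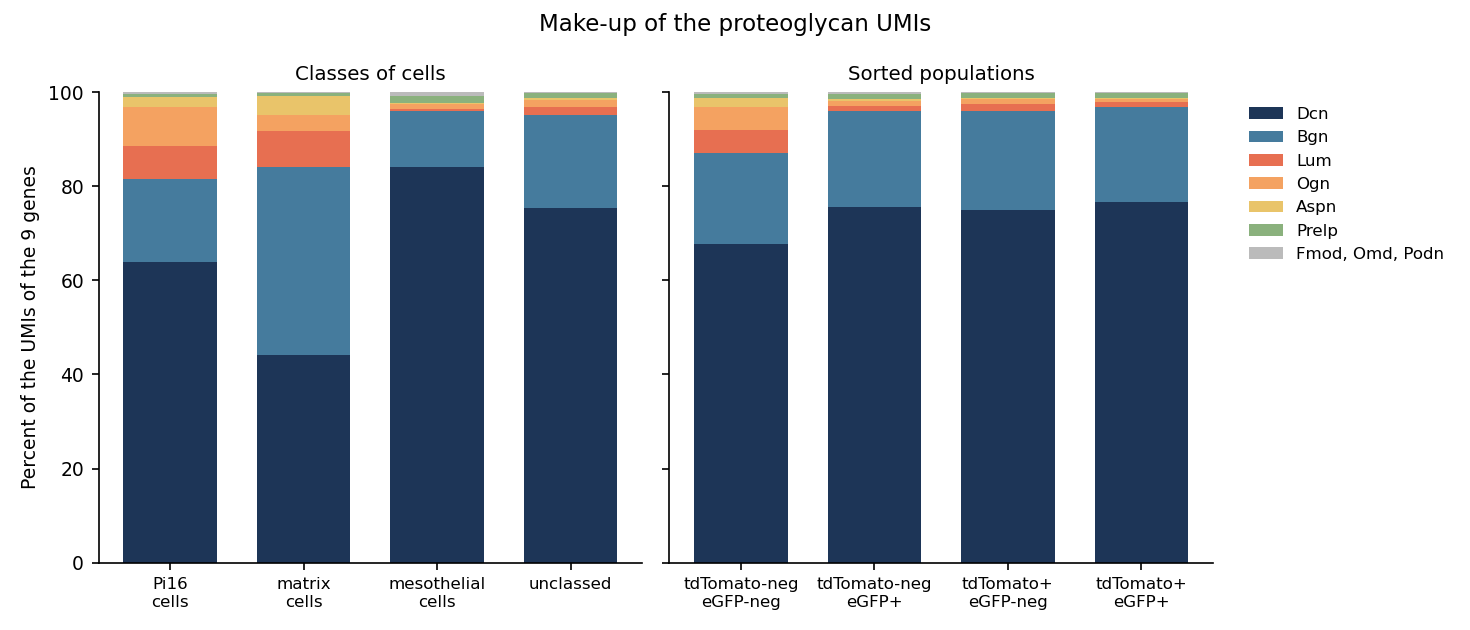
Stacked bars from 0 to 100% of the UMIs of the 9 genes, by class of cells on the left and by sorted population on the right. *Bgn* takes 40.0% in matrix cells and 11.9% in mesothelial cells, and *Lum*, *Ogn* and *Aspn* are visible mainly in Pi16 cells, matrix cells and the tdTomato-neg eGFP-neg library.

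The first 3 comparisons set classes against each other over all libraries, and a gene was counted as apart when its CPM differed 2-fold or more with an interval of the log2 ratio that left out 0. Pi16 cells against matrix cells had 4 of the 9 genes higher, where 4.63% of 14503 genes were higher, and 1 lower, where 1.79% were lower. *Omd* was higher by 2.62 on the log2 scale (1.72 to 3.67), *Ogn* by 1.88 (1.82 to 1.95), *Podn* by 1.52 (1.24 to 1.82) and *Dcn* by 1.19 (1.17 to 1.21). *Fmod* was lower, at -1.81 (-2.58 to -1.08). The median over the 9 genes was 0.91, beside 0.04 over all genes compared.

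Within the 3 libraries that held at least 50 cells of both classes, the log2 ratio of *Ogn* in Pi16 over matrix cells was 1.73, 2.19 and 2.07 (tdTomato-neg eGFP-neg, tdTomato-neg eGFP+, tdTomato+ eGFP-neg) and that of *Dcn* 1.23, 1.27 and 0.95. *Podn* was at 1.54, 1.80 and 1.56. *Omd* was at 2.63 in the first library and -0.20 in the last, on 2 UMIs in each class there, so its pooled ratio rests on the first. *Fmod* was at -0.95, -1.77 and -2.52, on 17 and 19, 2 and 9, and 4 and 20 UMIs. Only the last of these intervals (-4.53 to -0.94) left out 0. Where cells with Y-linked UMIs alone were used, 2 of the 9 genes were 2-fold apart instead of 5.

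Matrix cells against mesothelial cells had 5 genes higher, beside 12.3% of all genes, and 1 lower, beside 11.1%. *Aspn* was higher by 7.48 (6.97 to 8.04), *Lum* by 4.54 (4.40 to 4.69), *Omd* by 2.68 (0.92 to 4.78), *Bgn* by 2.33 (2.30 to 2.36) and *Ogn* by 2.14 (2.03 to 2.25). *Prelp* was lower, at -1.02 (-1.20 to -0.85), close to the 2-fold limit. Its ratio was -1.27, -0.56 and -1.46 within tdTomato-neg eGFP-neg, tdTomato-neg eGFP+ and tdTomato+ eGFP-neg. Where either marker gene of a class placed a cell it was -0.11. The ratios of *Aspn*, *Lum* and *Omd* are set against levels that read as background. *Omd* had 4 UMIs in mesothelial cells, and its 0.911 CPM (0.455 to 1.63) in matrix cells is itself within the interval of melanoma cells (0.666 CPM, 0.244 to 1.45), so no difference in *Omd* is read from this ratio.

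Pi16 cells against mesothelial cells had 5 genes higher, beside 13.8% of all genes, and 1 lower, beside 9.73%. *Aspn* was higher by 7.17 (6.66 to 7.73), *Omd* by 5.30 (3.90 to 7.20), *Lum* by 5.10 (4.96 to 5.24), *Ogn* by 4.02 (3.93 to 4.11) and *Bgn* by 1.80 (1.77 to 1.84). *Fmod* was lower, at -2.47 (-3.16 to -1.84). *Prelp* was at -0.11 (-0.23 to 0.01) and *Dcn* at 0.83 (0.82 to 0.85). *Aspn*, *Lum*, *Ogn* and *Bgn* were therefore higher in both fibroblast classes than in mesothelial cells. Within tdTomato-neg eGFP-neg, tdTomato-neg eGFP+ and tdTomato+ eGFP-neg, *Dcn* was at 0.94, 0.77 and 0.15. *Prelp* was at -0.07, 0.36 and -1.11 (-1.51 to -0.70), so the libraries differed. *Fmod* was at -2.70, -1.52 and -1.53, and only the first interval (-3.54 to -1.95) left out 0. *Omd* in Pi16 cells stood above its level in melanoma cells, which were deeper (medians of 4383 and 20877 UMIs). Of its UMIs in Pi16 cells, 96 came from the tdTomato-neg eGFP-neg library.

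The classes rest on single UMIs, so the genes were also read along the number of marker UMIs in cells thinned to 1000 UMIs. From 0 to 3 or more *Pi16* UMIs (19658, 853, 348 and 317 cells), *Dcn* was at 3343, 7845, 9888 and 11025 CPM. *Ogn* was at 134, 1093, 1503 and 2009 CPM, and *Aspn* at 34.0, 167, 227 and 281 CPM. *Bgn* was at 858, 851, 667 and 502 CPM, lower where *Dcn* and *Ogn* were higher. *Lum* was at 133, 556, 621 and 435 CPM, so it was not highest where *Pi16* was highest. In the tdTomato-neg eGFP-neg library alone, which held most of the cells with *Pi16*, *Dcn* was at 3577, 8109, 9944 and 11048 CPM and *Bgn* at 846, 792, 658 and 454 CPM. In the other libraries only the bins of 0 and 1 *Pi16* UMI had 20 cells or more, and *Bgn* was higher in the second, at 753 and 1174 CPM in tdTomato-neg eGFP+ (46 cells with 1 UMI) and 1008 and 1294 CPM in tdTomato+ eGFP-neg (68 cells). The lower *Bgn* along *Pi16* was thus seen in the tdTomato-neg eGFP-neg library and not in these.

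Along *Mfap4* and *Col15a1* UMIs counted together, *Bgn* was at 676, 1580, 2073 and 2513 CPM, *Lum* at 118, 346, 437 and 677 CPM, and *Aspn* at 29.6, 105, 173 and 245 CPM. *Dcn* was at 3817, 3509, 3126 and 3032 CPM. Along *Msln* and *Upk3b* UMIs, *Bgn* was at 910, 463, 395 and 278 CPM and *Lum* at 181, 40.3, 29.2 and 21.4 CPM, while *Prelp* was at 54.5, 52.9, 60.1 and 103 CPM. In each of the 4 libraries *Bgn* was highest in the last bin of the matrix genes that held 20 cells.

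**Figure D3:**
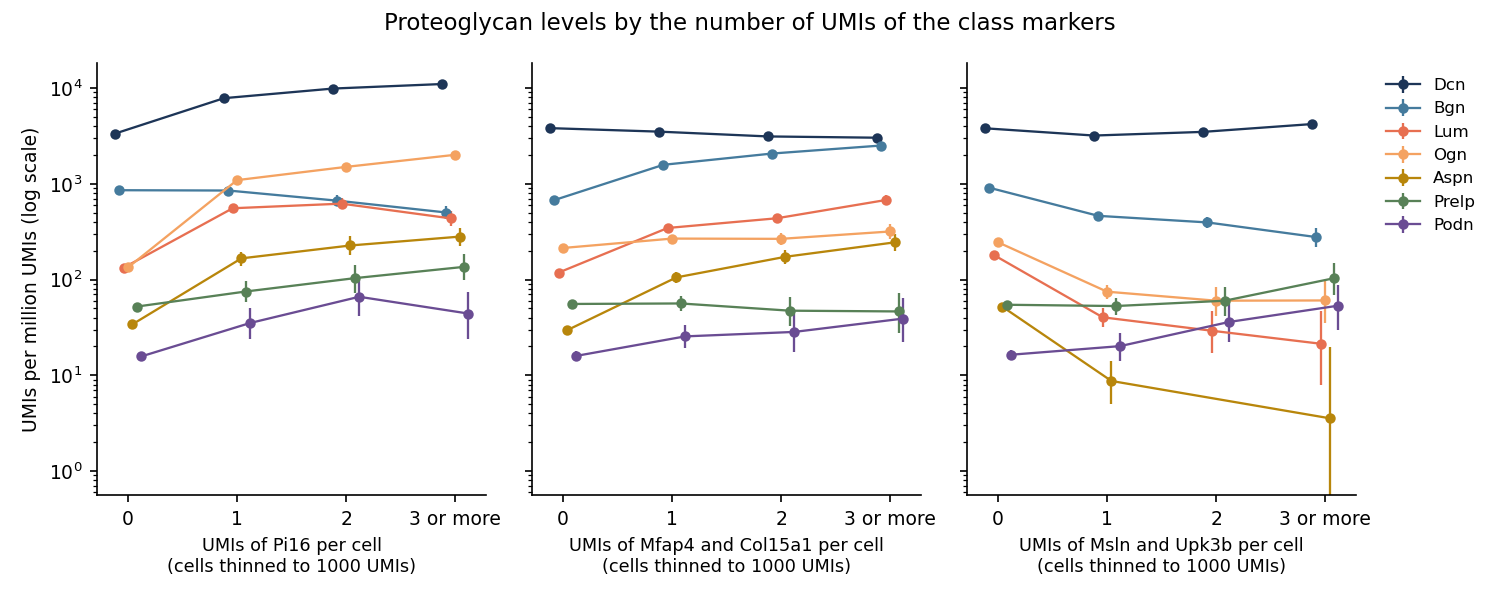
CPM on a log axis of 7 of the genes in cells with 0, 1, 2 or at least 3 UMIs of *Pi16* (left), of *Mfap4* and *Col15a1* (middle) and of *Msln* and *Upk3b* (right), all cells thinned to 1000 UMIs, with 95% Poisson intervals. Points at 0 UMIs are not drawn. *Dcn* and *Ogn* climb along *Pi16* to 11025 and 2009 CPM while *Bgn* ends at 502 CPM.

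Among single Pi16 cells, *Bgn* and *Ogn* were found apart more often than together. At 1000 UMIs per cell, *Bgn* was found in 36.2% (33.6 to 38.9) of 1333 cells with *Ogn* and in 63.8% (61.2 to 66.3) of 1413 cells without it. The shares were 34.5% and 62.6% in the tdTomato-neg eGFP-neg library but 67.5% and 67.5% in the tdTomato+ eGFP-neg library, on 77 and 212 cells. In matrix cells they were 82.4% and 81.7%. *Aspn* showed the reverse in Pi16 cells, with 17.8% of cells with *Ogn* and 8.35% of cells without it. Cells of 1 library are not replicates, and these shares describe the cells sequenced.

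The libraries hold cells of both sexes, and *Bgn* is X-linked, so cells with *Xist* UMIs and none of 4 Y-linked genes were set beside cells with Y-linked UMIs and no *Xist*. Of cells with 1 kind of mark, 76.6% of Pi16 cells, 43.1% of matrix cells and 38.7% of mesothelial cells were Xist-only. In Pi16 cells *Bgn* was at 1036 CPM in 1072 Xist-only cells and 2085 CPM in 328 Y-only cells, a log2 ratio of -1.01 (-1.06 to -0.96). *Aspn* was at 114 and 272 CPM (-1.26, -1.39 to -1.13), while *Dcn* was at 5097 and 3446 CPM (0.56, 0.54 to 0.59) and *Ogn* at 703 and 386 CPM (0.86, 0.78 to 0.95). The signs for these 4 genes were the same within the tdTomato-neg eGFP-neg library (-0.98, -1.27, 0.59 and 0.84) and within the tdTomato+ eGFP-neg library (-0.92, -2.10, 0.35 and 0.49).

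The other classes had part of this pattern. In matrix cells *Bgn* was at -0.48 (-0.52 to -0.43), *Aspn* at -0.85 (-1.01 to -0.70) and *Dcn* at -0.02 (-0.07 to 0.02). Matrix and Pi16 cells were thus further apart in *Bgn* among Xist-only cells (1594 and 1036 CPM) than among Y-only cells (2216 and 2085 CPM). *Aspn* was at 138 and 114 CPM in Xist-only and 250 and 272 CPM in Y-only cells, again matrix before Pi16 cells. In mesothelial cells *Bgn* was at -0.33 (-0.40 to -0.26) and *Dcn* at 0.35 (0.32 to 0.38), the same signs as in Pi16 cells. There *Podn* (1.39, 1.00 to 1.79), *Fmod* (1.27, 0.65 to 1.89) and *Prelp* (0.94, 0.74 to 1.15) were higher in Xist-only cells. The lower share of *Bgn* beside *Ogn* was seen in Xist-only Pi16 cells, where *Bgn* was found in 30.1% (26.2 to 34.2) of cells with *Ogn* and 58.0% (53.6 to 62.3) without it. In Y-only Pi16 cells the shares were 82.4% (73.0 to 89.6) and 82.7% (77.3 to 87.3). Xist-only Pi16 cells had a median of 5481 UMIs and Y-only ones 10331, and sex, animal and tumor cannot be told apart here.

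**Figure D4:**
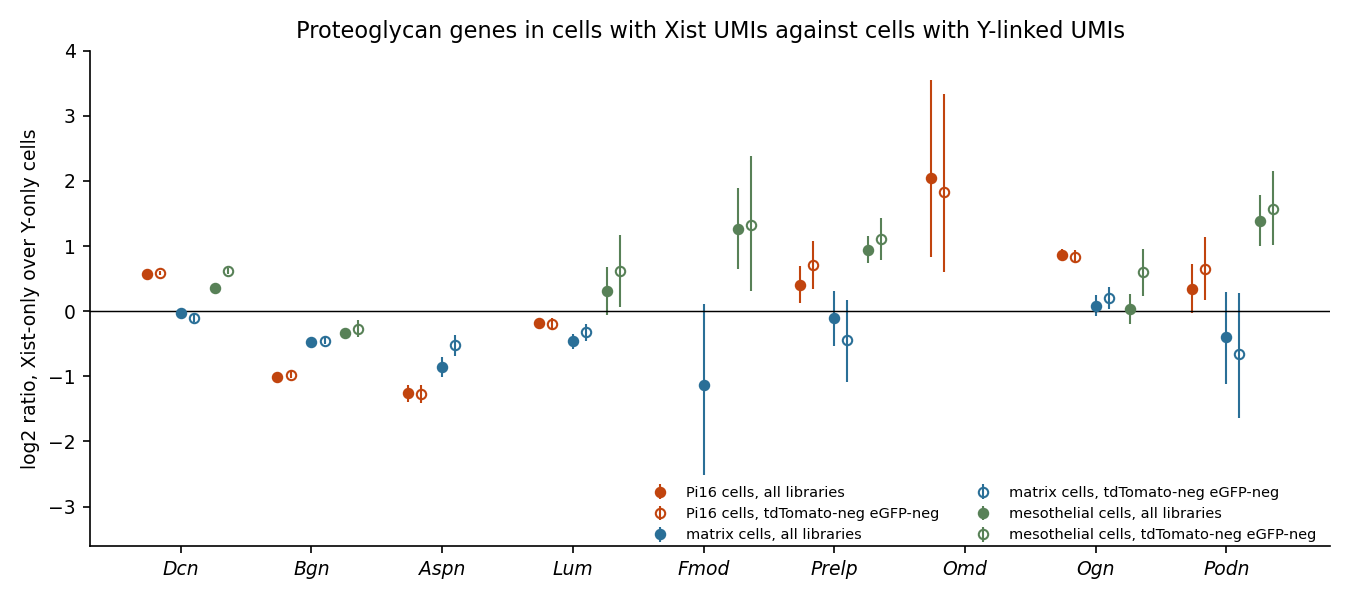
Log2 ratio of CPM in Xist-only over Y-only cells, by class, with 95% intervals for counting error. Filled symbols pool the libraries, open ones are the tdTomato-neg eGFP-neg library, and pairs with fewer than 20 UMIs or with 0 UMIs on 1 side are not drawn. *Bgn* is below 0 in all 3 classes, at -1.01, -0.48 and -0.33 over all libraries.

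The other 3 comparisons set each reporter-positive population against the tdTomato-neg eGFP-neg population, the cells without sign of *Cxcl13* promoter activity. The 3 share that library. The tdTomato-neg eGFP+ population had 0 of 9 genes 2-fold higher and 5 lower, where 1.5% and 5.16% of all genes were. The tdTomato+ eGFP-neg population had 0 higher and 5 lower, beside 3.35% and 4.99%, and the tdTomato+ eGFP+ population 0 and 5, beside 2.92% and 6.05%. The 5 lower genes were *Lum*, *Ogn*, *Aspn*, *Omd* and *Podn* each time. Among Y-only cells alone, 1 gene (*Aspn*) was 2-fold apart in tdTomato+ eGFP-neg, and 3 (*Lum*, *Ogn* and *Aspn*) in each of the other populations.

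*Aspn* was at 82.0 CPM in the tdTomato-neg eGFP-neg library and at 9.35, 9.58 and 8.98 CPM in the tdTomato-neg eGFP+, tdTomato+ eGFP-neg and tdTomato+ eGFP+ libraries, with log2 ratios of -3.13, -3.10 and -3.19. *Ogn* was at 230 CPM against 38.2, 49.3 and 27.5 CPM, and *Lum* at 224 CPM against 35.7, 78.3 and 52.0 CPM. *Podn* was at 15.9 CPM against 7.82, 6.68 and 5.18 CPM, and *Omd* at 1.78 CPM against 0.446, 0.455 and 0.345 CPM, the last on 3 UMIs (log2 ratio -2.36, -4.66 to -0.79). These 5 genes were lower in each library with reporter. For *Lum*, *Ogn* and *Aspn* the intervals of the reporter-positive libraries all ended below that of the library without reporter.

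*Dcn* and *Bgn* stayed within a narrow range. *Dcn* was at 3116 CPM in the tdTomato-neg eGFP-neg library and at 2670, 3720 and 3452 CPM in the others, and *Bgn* at 884 against 728, 1035 and 908 CPM. *Prelp* was at 41.9 against 44.1, 57.0 and 48.6 CPM, and *Fmod* at 3.20 against 3.76, 2.06 and 2.30 CPM. From lowest to highest library this is 1.39-fold for *Dcn*, 1.42-fold for *Bgn* and 1.36-fold for *Prelp*, against 9.14-fold for *Aspn*, 8.36-fold for *Ogn* and 6.30-fold for *Lum*. The direction for *Dcn* depended on how cells were weighted. In the tdTomato+ eGFP-neg population its log2 ratio was 0.26 from summed UMIs and -0.29 from the mean over cells, and in the tdTomato+ eGFP+ population 0.15 and -0.47.

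Because the populations hold different shares of the classes, the ratios were repeated within each class that had at least 50 cells in both libraries. For the tdTomato-neg eGFP+ population, *Aspn* went from -3.13 over all cells to -0.31 (-0.59 to -0.05) in Pi16 cells and -0.37 (-0.58 to -0.16) in matrix cells. *Lum* went from -2.65 to -0.27 (-0.42 to -0.12) and -0.40 (-0.56 to -0.24), and *Ogn* from -2.59 to -0.76 (-0.92 to -0.61) and -1.22 (-1.52 to -0.93). For *Lum*, *Ogn* and *Aspn* the differences in these classes were smaller than over all cells, with *Ogn* in matrix cells more than 2-fold apart. In matrix cells *Fmod* was higher, at 1.82 (0.50 to 3.04) on 9 and 19 UMIs, against 0.23 over all cells. In mesothelial cells *Aspn* was at -1.83 (-3.30 to -0.55) on 7 and 22 UMIs, *Lum* at -0.65 (-0.94 to -0.36) and *Ogn* at -0.03 (-0.21 to 0.15). Mesothelial levels of *Aspn* and *Lum* read as background, so no difference between the populations is read from their ratios there. *Bgn*, which was at -0.28 over all cells, was higher in each class, at 0.48 (0.40 to 0.55) in Pi16 cells, 0.30 (0.24 to 0.36) in matrix cells and 0.51 (0.46 to 0.57) in mesothelial cells.

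For the tdTomato+ eGFP-neg population, *Ogn* was at -1.05 (-1.15 to -0.95) in Pi16 cells and -1.39 (-1.62 to -1.18) in matrix cells, against -2.22 over all cells. *Aspn* was at -2.53 (-2.86 to -2.22) and -1.49 (-1.71 to -1.28), against -3.10. *Lum* was at 0.14 (0.06 to 0.22) in Pi16 cells and -0.82 (-0.95 to -0.69) in matrix cells, against -1.52. *Podn* was at 0.40 (0.06 to 0.72) and 0.39 (-0.28 to 1.02), against -1.25 over all cells, and at -0.52 (-1.41 to 0.25) in mesothelial cells, so the lower level was not seen in Pi16 cells, and the other intervals included 0. *Fmod* in matrix cells was at 1.90 (0.92 to 2.89) on 20 and 19 UMIs, against -0.64 over all cells. *Bgn* was higher than in tdTomato-neg eGFP-neg cells in each class, at 0.32 (0.27 to 0.37), 0.27 (0.22 to 0.31) and, in mesothelial cells, 0.88 (0.75 to 1.01).

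Melanoma-gene UMIs differed between the same libraries within classes. In matrix cells the 5 genes summed to 235 CPM in the tdTomato-neg eGFP-neg library, 11.7 CPM in tdTomato-neg eGFP+ and 7.74 CPM in tdTomato+ eGFP-neg. In Pi16 cells they summed to 268, 380 and 7.11 CPM. Melanoma cells, pooled over all libraries, carried *Lum* at 16.0, *Ogn* at 16.6 and *Aspn* at 3.44 CPM. The part of melanoma-gene UMIs in the ratios within classes was not tested. In sums over a library, fewer cells of a class and less RNA per cell cannot be told apart.

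**Figure D5:**
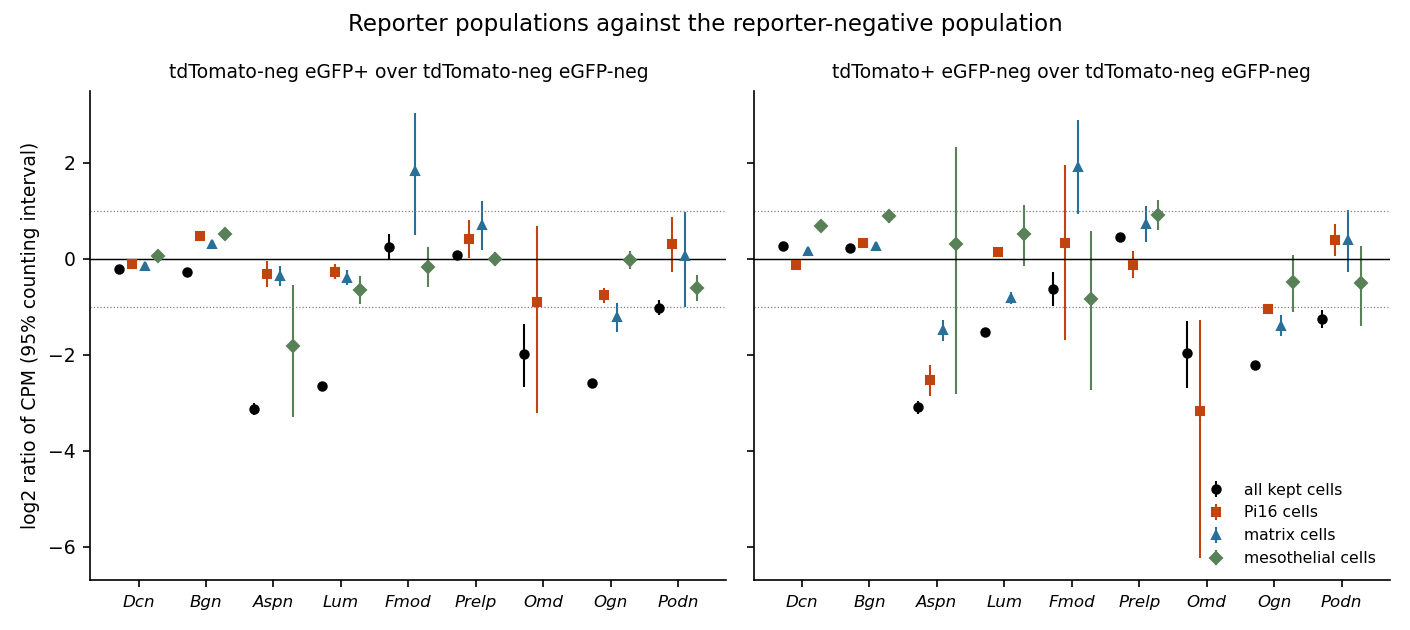
Log2 ratio of CPM of the tdTomato-neg eGFP+ (left) and tdTomato+ eGFP-neg (right) populations over tdTomato-neg eGFP-neg, for all kept cells and within each class, with 95% counting intervals. Dotted lines mark 2-fold, and pairs with fewer than 20 UMIs or with 0 UMIs on 1 side are not drawn. The values of *Lum*, *Ogn* and *Aspn* over all cells lie between -1.52 and -3.13, and within matrix cells between -0.37 and -1.49.

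Genes that work with the proteoglycans were read from fixed lists. Of 15 fibril partners (collagens and other fibril components, with *Lox* and *Pcolce*), 14 were 2-fold higher in matrix than in mesothelial cells and 0 lower, beside 12.3% and 11.1% of all genes, with a median log2 ratio of 1.98. In Pi16 against mesothelial cells 13 were higher and 0 lower (median 1.56), beside 13.8% and 9.73%. *Dpt* (dermatopontin, a binding partner of *Dcn*) was at 795, 455 and 6.38 CPM in Pi16, matrix and mesothelial cells, and *Col14a1*, a fibril-associated collagen, at 496, 170 and 11.1 CPM. *Col6a3*, a chain of collagen VI, was at 453, 708 and 78.4 CPM and *Col5a1*, which starts fibrils, at 523, 755 and 145 CPM, so these were highest in matrix cells. In Pi16 against matrix cells *Col14a1* (1.55) and *Tnxb* (1.39) were higher, beside 4.63% of all genes, and 0 of the list were lower, beside 1.79%. The median of the list was -0.52. *Col14a1* and *Dpt* were also the 2 fibril partners lower in each reporter-positive population, where 1 was higher in tdTomato+ eGFP-neg, 0 in tdTomato-neg eGFP+ and 2 in tdTomato+ eGFP+. Over all genes 1.5% to 3.35% were higher and 4.99% to 6.05% lower in these populations.

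Of 25 enzymes that build and sulfate the glycosaminoglycan chains, 23 had enough UMIs. In matrix against mesothelial cells 8 were higher and 3 lower (median 0.74), beside 12.3% and 11.1% of all genes, and in Pi16 against mesothelial cells 6 and 2 (median 0.57), beside 13.8% and 9.73%. The counts of lower enzymes were thus near the share over all genes, and so were those in the populations below. *Chst2*, a sulfotransferase that acts on N-acetylglucosamine, was at 7.46 CPM in matrix and 4.72 CPM in Pi16 cells, and had 7 UMIs in mesothelial cells. *Chsy3*, a chondroitin synthase, was at 72.5 CPM in matrix, 46.7 CPM in Pi16 and 6.38 CPM in mesothelial cells, and *Csgalnact1*, which starts the chain, at 83.6, 83.0 and 16.1 CPM. *B4galt4* and *B3gnt7*, enzymes of the keratan sulfate backbone, went the other way, with *B4galt4* at 24.2 CPM in mesothelial cells, 4.56 CPM in matrix cells and 6.00 CPM in Pi16 cells, and *B3gnt7* at 3.35, 0.331 and 0.167 CPM. In Pi16 against matrix cells 1 of 23 was higher and 0 lower, near the shares of 4.63% and 1.79% over all genes. Against tdTomato-neg eGFP-neg cells, 1 was higher and 1 lower in the tdTomato+ eGFP-neg population, 0 and 1 in tdTomato-neg eGFP+ and 0 and 2 in tdTomato+ eGFP+.

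Of 15 processing proteases, growth factors and receptors known to bind these proteins, 14 were compared. In matrix against mesothelial cells 5 were higher and 5 lower, beside 12.3% and 11.1% of all genes, and in Pi16 against mesothelial cells 6 and 4, beside 13.8% and 9.73%. *Bmp1*, which cleaves the propeptide of several family members, was at 175 CPM in matrix, 134 CPM in Pi16 and 45.8 CPM in mesothelial cells. *Tll1*, a related protease, was at 20.4 CPM in mesothelial cells and at 0.331 and 1.78 CPM in matrix and Pi16 cells. *Met*, a receptor that decorin binds, was at 50.9 CPM in mesothelial, 5.47 CPM in matrix and 7.11 CPM in Pi16 cells, and *Tgfb1* at 10.8, 53.2 and 26.7 CPM. *Bmp4*, a growth factor, was at 29.1, 2.90 and 9.72 CPM and *Sdc1*, a cell-surface proteoglycan, at 20.0, 107 and 54.1 CPM, again with mesothelial cells given before matrix and Pi16 cells. In Pi16 against matrix cells 3 were higher and 0 lower, beside 4.63% and 1.79% of all genes. *Tll1* and *Bmp4* were lower in the tdTomato+ eGFP-neg and tdTomato+ eGFP+ populations, where 4.99% and 6.05% of all genes were lower. In tdTomato-neg eGFP+ 0 of the 14 were 2-fold apart, where 1.5% of all genes were higher and 5.16% lower.

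Of 9 further family genes, 4 had 100 UMIs or more. *Ecm2*, the neighbour of *Aspn*, was at 35.6 CPM in Pi16, 20.0 CPM in matrix and 1.00 CPM in mesothelial cells, and at 15.0 CPM in the tdTomato-neg eGFP-neg library against 2.62, 4.16 and 2.76 CPM in the others. *Epyc* was at 3.11, 0.663 and 2.92 CPM in the 3 classes and *Tsku* at 10.5, 13.3 and 9.56 CPM. *Ecm2*, *Aspn*, *Omd* and *Ogn*, which lie side by side, thus were all lower in the reporter-positive libraries. Of these, *Ecm2*, *Aspn* and *Ogn* were lowest in mesothelial cells, where *Omd* had too few UMIs to be ordered against matrix cells. *Lum*, on chromosome 10, was also lower in these libraries and lowest in mesothelial cells, so the pattern was not particular to these neighbours.

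Over 9 combinations of class and library with at least 50 cells, which share libraries and depth, *Lum* and *Aspn* had a Pearson r of 0.94 on log2(CPM + 1), *Bgn* and *Aspn* 0.92, *Lum* and *Bgn* 0.91, and *Ogn* and *Omd* 0.87. *Dcn* was nearest to *Podn* (0.85) and *Fmod* was lowest against *Ogn* (-0.82). Among 9682 genes with at least 1000 UMIs, the pattern most like that of *Bgn* was *Col5a2* (0.996), and those most like *Lum* were *Stambpl1* (0.994) and *Dpt* (0.992). *Sult5a1* (0.991) was nearest to *Ogn*, *Scand1* (0.995) to *Aspn*, *Dzip1* (0.978) to *Dcn*, *Eci2* (0.959) to *Prelp*, *Yae1d1* (0.938) to *Fmod*, *Sms* (0.935) to *Omd* and *Nid2* (0.930) to *Podn*. Values of r over 9 points describe likeness only.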

How the data were processed

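The data are 4 single-cell RNA-seq libraries of sorted CAF, 1 per population, grouped by the labels. What the authors deposited are raw UMI counts made with Cell Ranger, whose version is 8.0.0 in the file header and 10.0.0 in the submitters' processing notes. Those notes also name STAR, Seurat 5.0 and GRCm39. The sums were made in Python 3.11.15 (scipy 1.17.1, numpy 2.4.6, pandas 2.3.3). Library depth ran from 10071954 to 90259852 UMIs, and the precision of each level follows from its UMIs.

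CPM were computed from UMIs summed over cells, with exact Poisson 95% intervals. Shares of cells have Clopper-Pearson intervals, and log2 ratios conditional binomial ones. Cells were thinned to 1000 UMIs with seed 1, and shallower cells were left out (114 Pi16, 5 matrix and 11 mesothelial cells). Doublets were treated only in an alternative without the deepest cells. Melanoma cells (434) had a *Pax3* UMI, no *Ptprc* and at least 3 of 5 melanoma genes. The log2 ratios, their intervals and the 2-fold rule were tested on simulated Poisson counts. Those counts held no spread between cells, animals or libraries, so the test does not cover such spread.

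The 9 genes and all lists were chosen with earlier results of these data known. Named genes were the 9 members, 4 lists (other family genes, fibril partners, glycosaminoglycan enzymes, proteases and binding partners) and, by likeness, the leading of 3 genes with the highest r. Of each partner list, up to 6 genes that were 2-fold apart between classes are named, largest change first. The shares of cells with *Bgn* and *Ogn* by library and sex mark were added after the values were seen. Alternatives were a 5% mitochondrial limit, other depths, filters, markers and weights, TMM factors of edgeR 4.0.16, single classes, single sex marks and each library left out. The cell clusters of the study were not rebuilt.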

Additional observations from a re-analysis of the deposited data

Results flagged for a closer look

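*Dcn* and *Lum* differed in direction between classes when populations were compared with tdTomato-neg eGFP-neg cells, with 1 library on each side, and the difference between classes was not tested. For tdTomato+ eGFP-neg the log2 ratio of *Dcn* was -0.126 in Pi16 cells, 0.16 in matrix cells and 0.669 in mesothelial cells. For tdTomato-neg eGFP+ it was -0.108 in Pi16 cells, -0.148 in matrix cells and 0.061 in mesothelial cells. *Lum* in tdTomato+ eGFP-neg was at 0.14 in Pi16 cells and -0.819 in matrix cells. The mesothelial value of *Dcn* in tdTomato+ eGFP-neg rests on 87 cells of that library.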

How the results depend on the processing

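Of the alternative values of the members' log2 ratios, 354 lay within the counting interval of the reported value, 327 lay outside it, and 8 of ratios that were 2-fold apart had the opposite sign. Of 410 alternatives to the 32 ratios that were 2-fold apart, 402 kept the sign and 369 were 2-fold apart in the same direction. Against tdTomato-neg eGFP-neg cells, the opposite signs were seen within 1 class: in mesothelial cells for *Lum* (0.51) and *Aspn* (0.30) in tdTomato+ eGFP-neg and *Lum* (0.41) and *Ogn* (0.70) in tdTomato+ eGFP+, and in matrix cells for *Podn* (0.39 in tdTomato+ eGFP-neg, 0.056 in tdTomato-neg eGFP+ and 0.19 in tdTomato+ eGFP+). The intervals of these values in tdTomato+ eGFP-neg and tdTomato-neg eGFP+ all included 0, and that of *Aspn* rested on 2 and 22 UMIs. *Fmod* in Pi16 over mesothelial cells turned to 0.066 among Y-only cells. The number of members 2-fold apart, 5 in each population, was 1 among Y-only cells, 3 among matrix cells and 0 among mesothelial cells in tdTomato+ eGFP-neg, 3, 2 and 1 in tdTomato-neg eGFP+, and 3 among Y-only and 0 among mesothelial cells in tdTomato+ eGFP+, which held 36 of the latter. The counts in matrix cells each include *Fmod*, which was higher there and is not one of the 5. In Pi16 against matrix cells 2 were apart among Y-only cells. Where either marker gene of a class placed a cell, the log2 ratio of *Aspn* in Pi16 over matrix cells went from -0.31 to 1.22. That of *Lum* went from 0.55 to 1.67, *Bgn* from -0.52 to -0.06 and *Prelp* from 0.91 to 0.22. The genes 2-fold apart rose with a lower minimum of UMIs, from 1209 to 1976 at 20 UMIs and 2158 at 1 UMI in tdTomato+ eGFP-neg, and from 966 to 1689 and 1870 in tdTomato-neg eGFP+. More genes are compared at a lower minimum. The cause of the other differences was not tested. No paired analysis was possible because each population has 1 library. *Omd* and *Fmod* are limited by depth, with 185 and 571 UMIs in all kept cells.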

Other observations

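The 15105 unclassed cells, which entered no comparison of classes, had *Dcn* at 3064 CPM, *Bgn* at 809 CPM, *Lum* at 65.9 CPM, *Ogn* at 58.8 CPM and *Aspn* at 15.8 CPM. *Bgn* lay between the levels of the fibroblast and mesothelial classes and *Dcn* between those of mesothelial and Pi16 cells, and 47.9% of the unclassed cells had *Bgn* at 1000 UMIs. *Podn*, at 6.67 CPM, was below all 3 classes.

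The 357 cells with *Ptprc* and at least 2 of 6 immune genes, left out of the kept cells, carried *Dcn* at 2146 CPM and *Bgn* at 530 CPM, and 55.6% of them had *Dcn* at 1000 UMIs. Melanoma cells had 16.9%. The immune cells also carried the 6 general fibroblast genes at 13782 CPM in sum, against 1537 CPM in melanoma cells, so their proteoglycan UMIs came with other fibroblast UMIs.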
